A study of Homo sapiens with 3 samples.

Results

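The SP and KLF transcription factors described here are 10 genes, *SP1*, *SP3*, *SP4*, *SP5*, *SP8*, *KLF3*, *KLF4*, *KLF5*, *KLF6* and *KLF10*, taken by symbol from the 23131 genes of the deposited table. All 10 were found. HCT-116 is a colon carcinoma line. All libraries share its wild-type *APC* and its CTNNB1ΔSer45 allele, whose β-catenin resists degradation, so canonical WNT signaling is already active before *APC* is silenced. Cells were treated on 2 consecutive days with pooled anti-*APC* siRNA, with pooled scrambled siRNA or without siRNA, and RNA was taken 48 hours after the second round. The control used here is called untransfected in its title and reagent-only (mock) in its treatment label. Cells given the anti-*APC* pool are called siAPC cells below and the untransfected ones control cells. There is 1 library per condition. The library from scrambled siRNA is not used here, and effects of siRNA delivery and of *APC* silencing cannot be told apart in the comparison of siAPC with control cells. Levels are given as FPKM, in which fragment numbers are divided by transcript length and by the mapped reads of the library, so that genes can be compared. In bulk RNA a smaller share of expressing cells and less RNA per cell cannot be told apart.

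SP and KLF proteins carry C2H2 zinc fingers near the carboxyl terminus and bind GC boxes and CACCC boxes. SP1 and SP3 are broadly expressed, and together with SP4 they are activators or dual regulators of housekeeping and growth genes. SP5 and SP8 belong to a second SP branch used in development. *SP5* is a direct target of β-catenin and TCF factors in many vertebrate tissues, and its protein can repress genes that SP1 activates. In the intestinal epithelium KLF5 is found in proliferating crypt cells and KLF4 in differentiating cells.

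The sequences just before the transcription start of *SP5*, its closest relative among the members *SP8*, and *KLF6* are shown because TCF factors act through short DNA sites and these 3 were the members with TCF-type matches in this window. Capitals mark a TCF-type match (CTTTGNN with A or T at both final positions, either strand) or a GC box (GGGCGG, either strand). The 250 bases are from RefSeq on GRCh38.p14, written 5′ to 3′ on the strand of the gene: chr2:170715087-170715336, plus strand, for *SP5*; chr7:20786887-20787136, minus strand, for *SP8*; and chr10:3785210-3785459, minus strand, for *KLF6*.
SP5: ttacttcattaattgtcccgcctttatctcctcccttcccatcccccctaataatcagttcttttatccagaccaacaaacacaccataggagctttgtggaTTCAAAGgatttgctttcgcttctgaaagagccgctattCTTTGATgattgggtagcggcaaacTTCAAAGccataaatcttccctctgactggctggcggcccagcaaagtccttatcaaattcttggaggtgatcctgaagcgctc
SP8: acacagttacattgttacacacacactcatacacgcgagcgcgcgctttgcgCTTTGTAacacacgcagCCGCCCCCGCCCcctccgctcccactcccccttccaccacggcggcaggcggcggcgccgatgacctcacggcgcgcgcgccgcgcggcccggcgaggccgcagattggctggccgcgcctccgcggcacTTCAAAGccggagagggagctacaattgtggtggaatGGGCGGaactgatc
KLF6: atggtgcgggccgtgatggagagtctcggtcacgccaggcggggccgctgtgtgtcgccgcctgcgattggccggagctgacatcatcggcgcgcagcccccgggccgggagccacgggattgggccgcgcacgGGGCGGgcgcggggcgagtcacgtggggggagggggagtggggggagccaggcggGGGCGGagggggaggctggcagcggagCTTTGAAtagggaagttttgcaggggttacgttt

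The *SP5* window held 3 TCF-type matches and no GC box. The matches begin 148, 109 and 84 bases before the start, and the middle one is CTTTGAT. At least 3 such matches were found in 0.125% of the 27305 RefSeq promoters of this length, at least 2 in 1.22% and at least 1 in 12.1%. *SP8* held 2 TCF-type matches and 3 GC boxes, and *KLF6* held 1 TCF-type match and 2 GC boxes. Of the 8 members with a promoter in the reference table, *SP1*, *SP4* and *KLF4* held 4 GC boxes each, *SP3* held 2 and *KLF5* none, and these 5 held no TCF-type match. At least 1 GC box was present in 6 of the 8 and in 42.3% of all promoters. The windows of *SP5* and *KLF5* held 45.6% and 40.8% G and C, and those of the other members with a promoter 58% to 78.8%. The TCF-type match is poor in G and C, and the shares over all promoters were not matched for base content. These counts describe letters in a short window and not binding, and a TCF site elsewhere at a locus would not be seen.

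**Figure D1:**
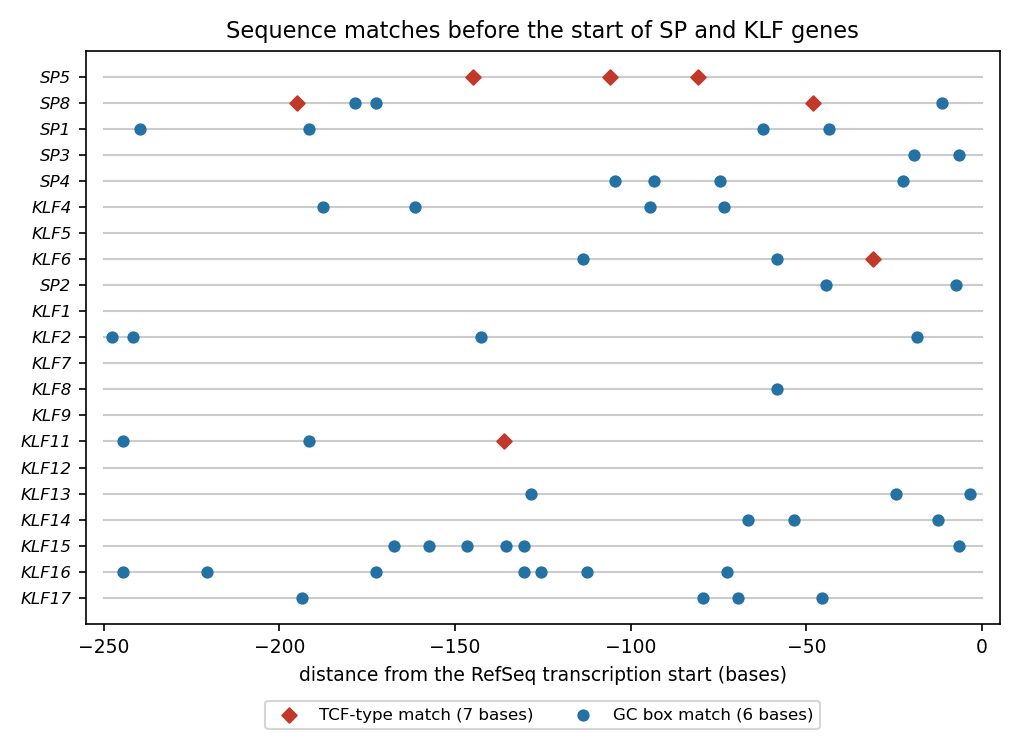
Positions of TCF-type matches (diamonds) and GC boxes (circles) in the 250 bases before the RefSeq start of 21 SP and KLF genes; the x axis is the distance from the start in bases. *SP5* has 3 diamonds and no circle, *SP8* has 2 diamonds, and *KLF6* and *KLF11* have 1 each.

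The targeted gene was lower in the library that received its siRNA. *APC* had 3.43 FPKM in siAPC cells and 9.15 FPKM in control cells, so 0.375 of the level was left. *AXIN2*, a negative feedback gene of the WNT pathway, went from 4.11 to 28.7 FPKM. About 22300000 reads stand behind the siAPC library and 24400000 behind the control library, as estimated from the smallest values in the table. On the log2 scale 1 read was worth 0.13 more FPKM in the siAPC library. The median log2 ratio of siAPC over control was -0.05 for the 12063 genes averaging 1 FPKM or more. Of 9 colon epithelial markers, 6 had at least 1 FPKM in both libraries (*EPCAM*, *CDH1*, *KRT8*, *KRT18*, *KRT19* and *CDX2*), while *CDX1*, *VIL1* and *LGALS4* were at or under 0.0673 FPKM. The summed level of the 9 was 1294 FPKM in siAPC cells and 1650 FPKM in control cells, and that of 4 leukocyte markers was 0.293 and 0.266 FPKM. The 3 endothelial markers summed to 0.0415 and 0.0725 FPKM. Of 4 fibroblast markers *COL1A1* alone was detected well, at 3.08 and 2.85 FPKM.

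*SP5* differed most among the 10 members. It had 0.394 FPKM in control cells and 2.14 FPKM in siAPC cells, which is 5.42-fold higher and a log2 ratio of 2.44. Its transcript of 2047 bases in 2 exons, on chromosome 2 of GRCh37 from 171571847 to 171574588, makes this about 20 and 97 reads. In the annotation a lncRNA, *ERICH2-DT*, overlaps *SP5* on the opposite strand, and as the use of strand in counting is not given in the sources used here, reads of the 2 cannot be told apart. The 95% counting interval of the ratio runs from 3.26-fold to 9.08-fold. There are no replicates, so the spread between cultures is unknown and the interval leaves it out. *SP5* ranked 13 in size of increase among these 12063 genes, of which 2.56% were at least 1.5-fold higher. Among those averaging between 1 and 10 FPKM the share was 3.52%. It met that minimum only through the siAPC library, since its untransfected level was below 1 FPKM. With 1 FPKM added to both values the log2 ratio was 1.17. In rank by level, *SP5* stood above 42.4% of all 23131 genes in control cells and above 52.9% in siAPC cells.

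The transcript of *SP5* is rich in G and C (66.3%), and the ratios in this table varied with GC content. Genes averaging 1 FPKM or more were placed in 4 classes of equal size by transcript GC, which was known for 86.3% of them. The class with the most GC, above 56.3%, had a median log2 ratio of -0.19, with 1.65% of genes at least 1.5-fold higher and 13.1% at least 1.5-fold lower. The class with the least GC had a median of 0.06. With its GC of 66.3%, *SP5* is in the range of the class with the most GC, and its log2 ratio was 2.44. The part of GC content in the result was not tested.

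*SP8*, on chromosome 7 from 20821899 to 20826505, encodes a factor of limb and brain development and was the member closest to *SP5* in level in control cells. It had 0.291 FPKM in control cells and 0.356 FPKM in siAPC cells, about 26 and 29 reads. The ratio was 1.22 with a counting interval from 0.695-fold to 2.16-fold, so a change within these bounds could not be told from counting error. The interval lies wholly below that of *SP5*, but both leave out the spread between cultures. In untransfected cells *SP5* was at 1.35 times the level of *SP8*, and in siAPC cells at 6.00 times. *SP8* did not reach a mean of 1 FPKM and is the 1 member of the 10 outside that filter.

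The general SP factors had higher levels than *SP5* in both libraries, *SP4* by the least. *SP1*, the founding member, had 34.2 FPKM in control cells and 28.7 FPKM in siAPC cells, which leaves 0.840 of the level (log2 ratio -0.25, counting interval -0.31 to -0.20). *SP3*, a factor that binds the same GC boxes and can activate or repress, went from 31.1 to 33.6 FPKM, a log2 ratio of 0.11. *SP4*, best known in neurons, went from 4.05 to 4.45 FPKM, a log2 ratio of 0.14 with a counting interval of -0.03 to 0.30. The central 90% of the 6123 genes with a mean between 10 and 100 FPKM lay between -0.48 and 0.34 on this scale, and *SP1* and *SP3* are inside that range. The central 90% of the 4945 genes between 1 and 10 FPKM, where *SP4* falls, lay between -0.80 and 0.45. The order of *SP1* and *SP3* by level was not the same in the 2 libraries, *SP1* being 1.10 times *SP3* in control cells and below it in siAPC cells. Both gaps were under 1.2-fold, and without replicates neither order is certain. The summed level of *SP1*, *SP3* and *SP4* was 69.3 FPKM in control and 66.8 FPKM in siAPC cells. Relative to that sum, *SP5* stood at 0.569% in control cells and at 3.20% in siAPC cells. *SP1* was at 86.6 times the level of *SP5* in control cells and at 13.4 times in siAPC cells.

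*KLF6*, an early-response factor and candidate tumor suppressor, was the other member past 1.5-fold. It had 35.7 FPKM in control cells and 54.7 FPKM in siAPC cells, a 1.53-fold difference and a log2 ratio of 0.62. This ratio lies above the central 90% of genes of similar level. Its counting interval, from 1.47-fold to 1.60-fold, includes the threshold of 1.5. *KLF6* is on chromosome 10 from 3818188 to 3827473, has no partner at its locus in the table, and ranked 287 in size of increase. Among genes averaging between 10 and 100 FPKM, 1.58% were at least 1.5-fold higher.

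The remaining KLF members differed little between the libraries. *KLF10*, which is induced by TGF-β and represses growth, had the highest level of all members, 57.2 FPKM in control and 55.0 FPKM in siAPC cells, a log2 ratio of -0.06. *KLF5* went from 26.2 to 29.1 FPKM (log2 ratio 0.15), whereas *KLF4*, its counterpart in differentiating cells, went from 17.8 to 16.1 FPKM (log2 ratio -0.15). Both differences, opposite in sign, lie inside the central 90% of genes of their level. *KLF3*, a repressor that recruits CtBP, went from 12.1 to 12.5 FPKM, a log2 ratio of 0.04. It shares its locus in the table with *FLJ13197*, which is listed at 0 in control cells and at 0.0722 FPKM in siAPC cells. The annotation lists 2 pseudogenes of *KLF3* and 1 each of *KLF4* and *SP3*, which are not analysed here, and *KLF3* and *KLF4* also overlap a lncRNA on the opposite strand. The division of reads among these is not known.

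**Figure D2:**
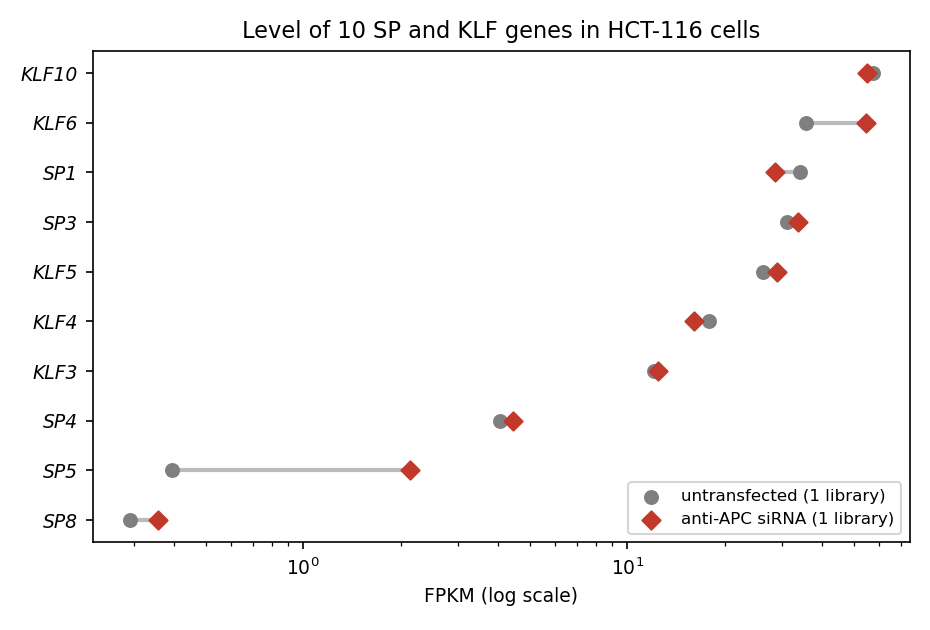
FPKM (x axis, log scale) of the 10 members in the untransfected library (grey circles) and the anti-*APC* siRNA library (red diamonds), 1 library each. The 2 points of *SP5* are at 0.394 and 2.14 FPKM and those of *KLF6* at 35.7 and 54.7 FPKM, while the points of the other members lie close together.

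In untransfected cells the order of level was *KLF10*, *KLF6*, *SP1*, *SP3*, *KLF5*, *KLF4*, *KLF3*, *SP4*, *SP5* and *SP8*. With anti-*APC* siRNA it was *KLF10*, *KLF6*, *SP3*, *KLF5*, *SP1*, *KLF4*, *KLF3*, *SP4*, *SP5* and *SP8*. *KLF10* and *KLF6* were 1.60-fold apart in control cells and 1.00-fold apart in siAPC cells. *SP5* stayed in the same place, but the gap to *SP4* above it went from 10.3-fold to 2.08-fold. Since no replicate spread is known, neighbours less than 1.2-fold apart, such as *KLF6* and *SP1* or *SP3* and *KLF5* in control cells, were not ranked with any certainty. The summed level of the 10 members was 219 FPKM in control and 237 FPKM in siAPC cells, and the difference in *KLF6* alone exceeded that of the sum.

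Of the 9 members averaging 1 FPKM or more, 2 were at least 1.5-fold higher in siAPC cells (*SP5* and *KLF6*), none was at least 1.5-fold lower, and 7 lay within 1.5-fold. Over all genes in the same filter 9.17% were past 1.5-fold, 2.56% higher and 6.61% lower. The median log2 ratio of the 9 was 0.11, beside -0.05 over all genes in the filter. These members were proposed with the *SP5* result in view, and *SP5* met the minimum mean only through the siAPC library, where it was higher. With 9 genes the count is a description.

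**Figure D3:**
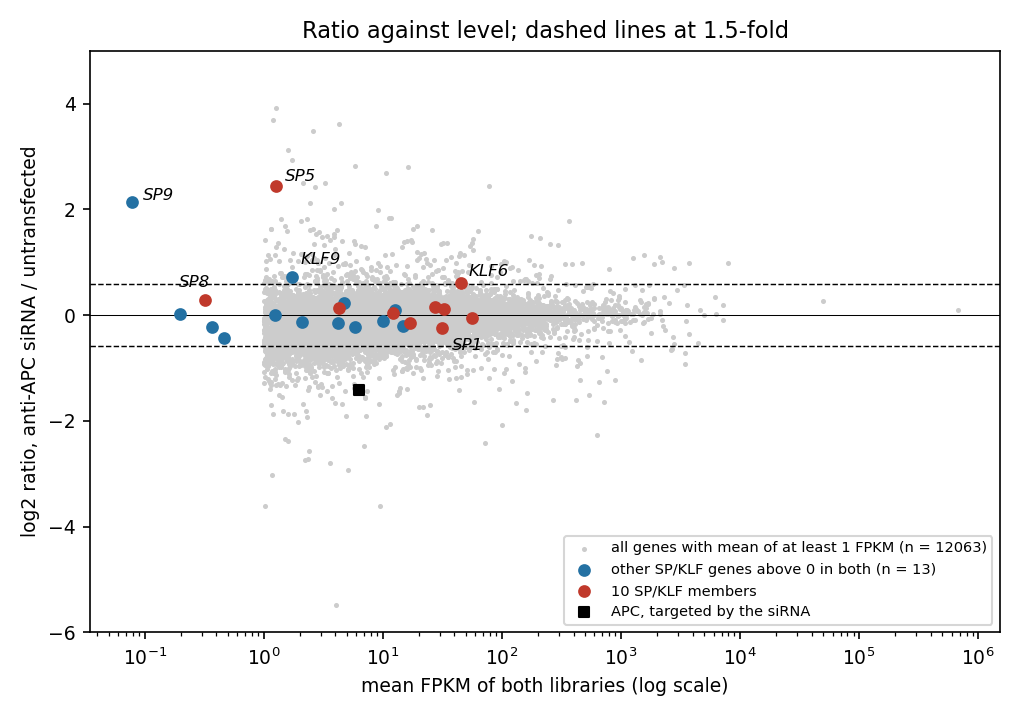
Log2 ratio of anti-*APC* siRNA over untransfected (y axis) against the mean FPKM of both libraries (x axis, log scale) for 12063 genes (grey), the 10 members (red), 13 other SP and KLF genes above 0 in both libraries (blue) and *APC* (black square). *SP5* lies at 2.44 above nearly all genes of its level, *KLF6* lies just above the 1.5-fold line, and the other members lie between the dashed lines.

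The other 16 SP and KLF genes of the table were read in the same way. In 9 of them the mean was at least 1 FPKM. Of these 9, 1 was past 1.5-fold higher and none lower, beside 2.56% and 6.61% over all genes in the filter. Their median log2 ratio was -0.12. The 1 was *KLF9*, a glucocorticoid-induced repressor, with 1.29 FPKM in control and 2.13 FPKM in siAPC cells, about 164 and 247 reads. Its log2 ratio was 0.72 with a counting interval of 0.43 to 1.02. With anti-*APC* siRNA *SP5* and *KLF9* were thus at nearly the same level. The other 8 had log2 ratios from -0.22 (*KLF2*, a quiescence factor of endothelium and lymphocytes) to 0.24 (*KLF11*, a TGF-β-inducible relative of *KLF10*). Between them lay *KLF16*, *SP6*, *KLF7*, *SP2*, *KLF12* and *KLF13*.

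The second SP branch, *SP5* to *SP9*, held no other gene past 1.5-fold with a mean of at least 1 FPKM. *SP6*, which acts in skin and tooth epithelium, had 4.47 FPKM in control and 4.01 FPKM in siAPC cells, a log2 ratio of -0.16. *SP7*, the osteoblast factor osterix, had 0.0130 FPKM in control cells and is listed at 0 in siAPC cells. *SP9* had 0.0289 FPKM in control and 0.127 FPKM in siAPC cells. This is an FPKM ratio of 4.38 from about 2 and 7 reads, and its counting interval (0.730-fold to 37.8-fold) includes a ratio of 1. *KLF8*, *KLF14* and *KLF15* had between 0.196 and 0.530 FPKM in both libraries, and their counting intervals also include a ratio of 1. *KLF1*, the erythroid factor, is listed at 0 in siAPC cells and *KLF17*, a factor of germ cells and early embryos, at 0 in control cells. At most about 2 reads stand behind each of *SP7*, *KLF1* and *KLF17*, and no fold is given for them.

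Genes that work with or under SP and KLF factors, and other WNT targets, were read beside the members. Past 1.5-fold were 9.17% of all genes averaging 1 FPKM or more. All 16 co-regulators and partners of SP and KLF proteins were within 1.5-fold, with a median log2 ratio of 0.06. The largest were *NFYA*, a CCAAT-binding partner of SP1 (13.6 to 16.9 FPKM, log2 ratio 0.31), *MED26*, a Mediator subunit (0.26), *FBXW7*, which targets KLF5 for degradation (0.18), and the deacetylase *HDAC1* (-0.14). *SIN3A*, *CTBP1*, *CTBP2*, *HDAC2* and *EP300* were among the rest.

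Over all genes averaging 1 FPKM or more, 2.56% were at least 1.5-fold higher and 6.61% at least 1.5-fold lower. Of 14 genes known as targets of SP or KLF factors, none was past 1.5-fold higher and 3 were past it lower. These were the growth factor gene *PDGFA* (5.97 to 3.13 FPKM, log2 ratio -0.93), the telomerase gene *TERT* (1.67 to 0.878 FPKM, log2 ratio -0.93) and *CDH1*, which encodes E-cadherin (19.0 to 12.1 FPKM, log2 ratio -0.65). *VEGFA* followed at -0.54. *TERT* met the minimum mean of 1 FPKM only through the control library, since its level in siAPC cells was below 1 FPKM. The median of the 14 was -0.07. *CDKN1A*, which KLF4 and KLF6 can activate, had 67.9 FPKM in control and 65.1 FPKM in siAPC cells, while *KLF6* itself was 1.53-fold higher. *ODC1*, a gene repressed by KLF4 and activated by MYC, was at 441 and 641 FPKM, a log2 ratio of 0.54.

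Of 20 WNT targets, 13 had a mean of at least 1 FPKM, with a median log2 ratio of 0.35. Of the 13, 4 were past 1.5-fold higher and 3 past it lower, beside 2.56% and 6.61% over all genes in the filter. *SP5* is not in this list, and its ratio of 2.44 falls between those of *AXIN2* (2.81) and *NKD1*, another feedback inhibitor (1.04). The signal molecule gene *BMP4* (1.02) and *ZNRF3*, a ligase that removes WNT receptors (0.81), were the other 2 higher ones. The lower ones were the crypt receptor genes *EPHB2* (-1.36) and *EPHB3* (-0.88) and the adhesion gene *CD44* (-0.64). *EPHB3*, at 0.730 FPKM in siAPC and 1.34 FPKM in control cells, met the minimum mean only through the control library. *LEF1*, *ASCL2* and *APCDD1* are listed at 0 in both libraries, as is *RNF43*, whose row is marked FAIL and so carries no level. *LGR5*, *TDGF1* and *TNFRSF19* had at most 0.473 FPKM. *CCND1* and *MYC* stand in both this list and that of SP or KLF targets and were within 1.5-fold.

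**Figure D4:**
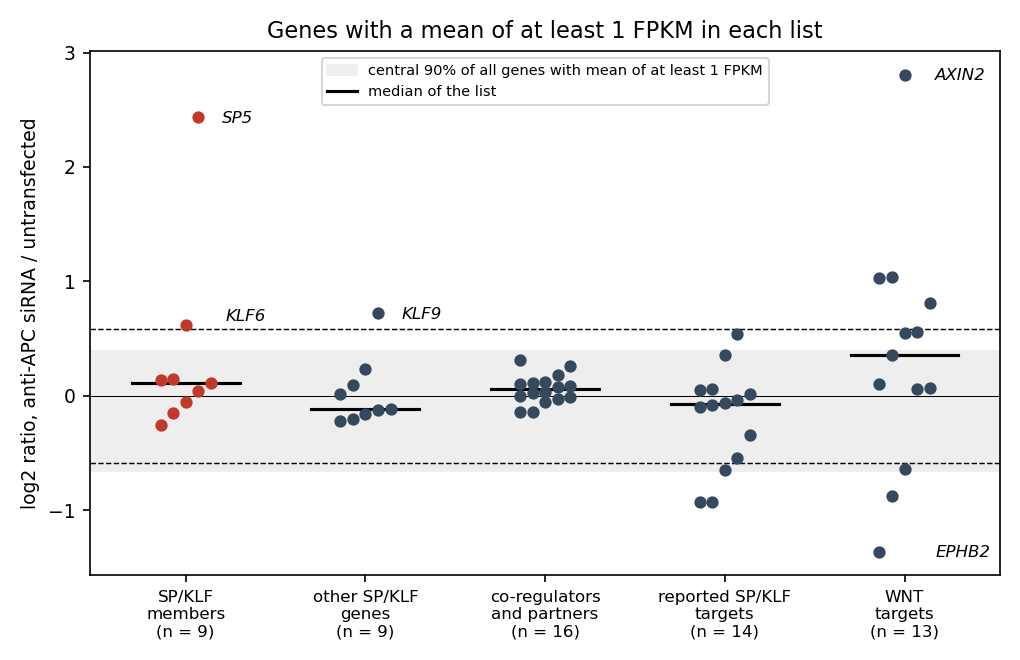
Log2 ratio of anti-*APC* siRNA over untransfected (y axis) for every gene with a mean of at least 1 FPKM in 5 lists (x axis); points are genes, bars are list medians, dashed lines mark 1.5-fold, and the band holds the central 90% of 12063 genes. *SP5* at 2.44 and *AXIN2* at 2.81 stand above every other gene shown, and all co-regulators lie inside the band.

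The 5 genes nearest to *SP5* by level in the 2 libraries, measured as Euclidean distance over log2 FPKM, were *C8orf44-SGK3* (distance 0.033), *RGPD6* (0.49), *GPR183* (0.51), *MPP4* (0.55) and *SOCS1* (0.57). *C8orf44-SGK3* went from 0.389 to 2.10 FPKM, shares its locus with 3 other genes and is a read-through transcript of its neighbours. *GPR183* shares its locus with 6 other genes, and *RGPD6* belongs to a family of near-identical copies, so the assignment of reads to these is uncertain. *SOCS1*, a feedback inhibitor of cytokine signaling with no partner at its locus, went from 0.322 to 1.53 FPKM. Likeness over 2 libraries says only that the pairs of values are close.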

How the data were processed

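RNA-seq of HCT-116 cells comprised 3 libraries, 1 per condition. Per the labels, the submitters' processing notes name Cufflinks, Cuffdiff and build hg19; versions, aligner and annotation are not given in the sources used here. The deposited table holds FPKM for the anti-*APC* siRNA and the untransfected library. The authors' 4 comparison columns (natural log of the fold change, test statistic, *p* and *q*) were not used.

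Log2 ratios of FPKM were computed without a pseudocount, and a gene was counted as past the threshold at 1.5-fold, with a mean of at least 1 FPKM, above 0 in both libraries and with a status other than FAIL. With 1 library per condition no test between conditions was possible, and no *p* was computed.

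Read numbers are approximate. Among 1030 genes under 0.05 FPKM, 257 shared 1 ratio within 0.01 on the log2 scale, taken as equal reads in both libraries; 17 genes with 1 annotated transcript, the densest window of 0.5 on the log2 scale among 33, gave a median depth of 24400000 control reads, with quartiles of 22900000 and 25200000, and 22300000 for the siAPC library. FPKM times transcript length (GENCODE 44, GRCh37, canonical transcript) and depth gave reads, with 95% exact binomial (Clopper-Pearson) intervals of the ratio. These intervals cover counting error only and depend on the transcript length, and reads are not independent molecules.

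Promoters (250 bases before the start) are RefSeq sequences on GRCh38, and no coordinate was converted between builds. Symbols matched for 21 of 26 SP and KLF genes, the missing ones being *KLF3*, *KLF10*, *SP6*, *SP7* and *SP9*.

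The members, lists and the rule for named genes were chosen with earlier results of these data known. Named were the members, their 16 relatives, *APC*, *AXIN2*, the 4 largest absolute ratios per other list and the 5 genes nearest to *SP5*. Further WNT targets and SP or KLF targets, the locus partner of *KLF3* and *COL1A1* were chosen for naming with their values in view. Alternatives were other pseudocounts, FPKM minimums, fold thresholds, median centring, status OK alone and genes alone at their locus. The calculations of depth, ratio and interval were tested on simulated Poisson reads with known transcript lengths and no spread between cultures. That tests the calculations and not the read numbers estimated for these libraries. The software was scipy 1.17.1, pandas 2.3.3, numpy 2.4.6 and matplotlib 3.10.9 under Python 3.11.15.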

Additional observations from a re-analysis of the deposited data

How the results depend on the processing

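No difference here has a replicate check, so the alternatives only show how the values follow from the settings. *SP5* kept its direction and stayed past 1.5-fold in every alternative run on its ratio. With 1 FPKM added to both values the log2 ratio was 1.17 for *SP5* and -1.19 for *APC*, because such an addition shrinks the ratios of low genes. The members past the threshold numbered 2 of 9 in the main setting. With a mean of at least 5 FPKM they numbered 1 of 7 (*SP5* is then left out). At 2-fold they numbered 1 of 9 (*KLF6* is then left out). The other SP and KLF genes numbered 1 of 9 in the main setting (*KLF9*) and 0 of 9 with 1 FPKM added. Without a filter on low values they numbered 2 of 13 (*SP9* joins). With a mean of at least 5 FPKM they numbered 0 of 4, and at 2-fold 0 of 9. The co-regulators, 0 otherwise, numbered 1 of 16 at 1.2-fold. The WNT targets numbered 7 of 13 in the main setting and 4 of 9 with a mean of at least 5 FPKM. At 2-fold they numbered 4 of 13 and at 1.2-fold 10 of 13. With the median subtracted 9 of 13 were past the threshold, 6 higher and 3 lower. Of the reported SP and KLF targets, 3 of 14 were past the threshold in the main setting. They numbered 1 of 11 with at least 5 FPKM, 0 of 14 at 2-fold and 7 of 14 at 1.2-fold. With the median subtracted they numbered 4 of 14, 1 higher and 3 lower. Over all genes the count of 1106 of 12063 became 3162 of 16289 without a filter and 533 of 9201 with at least 5 FPKM. It was 280 of 12063 at 2-fold, 3971 of 12063 at 1.2-fold and 809 of 12197 with 1 FPKM added. With the median subtracted it was 1005 of 12063, and among genes alone at their locus 735 of 9164. Of the 1106, 309 were higher and 797 lower. At 2-fold the split was 115 and 165, so the share of higher calls depends on the threshold. Subtracting the median moved the ratios of the members by 0.05, and that of *KLF10* to -0.01. No paired analysis was possible because each condition has 1 library. The approximate depth of about 20 reads limits *SP5* in untransfected cells, and *SP8* and *SP9* are limited in the same way.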

Other observations

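TCF-type matches outside the members, and CACCC matches over the whole family, complete the promoter counts. Among the 21 SP and KLF promoters, 4 held at least 1 TCF-type match, beside 12.1% of all promoters. The one outside the members was *KLF11*, with a single match and a log2 ratio of 0.24. Of the 10 WNT targets with a promoter in the reference table, 1 held a TCF-type match in this window, near the share of all promoters. That promoter held at least 2 matches. *SP5*, which held 3, is not among these 10. *KLF9*, the relative past 1.5-fold, held neither a TCF-type match nor a GC box. CACCC, searched on both strands, was found at least once in 8 of the 21 promoters and in 53.7% of all promoters. Among the 8 members with a promoter, 3 held it. *KLF16* held 7 GC boxes, the most of the family.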
